A study of Arabidopsis thaliana with 16 samples.

Results

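ANX1, ANX2, BUPS1 and AT5G61350 are 4 receptor-like kinases of the CrRLK1L family (Catharanthus roseus receptor-like kinase 1-like), chosen by gene symbol or locus as receptors of the Arabidopsis cells that grow at their tip, the pollen tube and the root hair. Each was measured by 1 probe set, so that 4 of the 22746 probe sets tested on the ATH1 array, and 4 of 13 CrRLK1L genes with a probe set of 1 named gene, are described. Per the platform annotation 258843_at measures ANX1 (AT3G04690), 246106_at ANX2 (AT5G28680) and 252933_at BUPS1 (AT4G39110). The probe set of AT5G61350, 247581_at, carries its locus only in the study's own table of transcripts expressed in pollen and root hairs, a table drawn up from these arrays, so that its presence in both cell types is not an independent observation. RefSeq lists ERULUS and CAP1 as synonyms of AT5G61350.

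CrRLK1L receptors span the plasma membrane and bind the outside of the cell with malectin-like domains. They sense the state of the cell wall and bind small secreted peptides of the RALF family, together with GPI-anchored co-receptors (LLG proteins) and leucine-rich repeat extensins (LRX proteins) of the wall. Inside the cell they act through ROP GTPases and their exchange factors (ROPGEF), NADPH oxidases and calcium. ANX1 and ANX2 keep the pollen tube from bursting before it reaches the ovule, and BUPS1 and its relative BUPS2 act with them as receptors of pollen RALF peptides. AT5G61350 is known for root hair tip growth, and FER, the best studied member, for the reception of pollen tubes by the ovule and for root hair growth.

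Each of 8 sample types of ecotype Columbia was hybridised in 2 biological replicates, with no treatment or mutant among them. Root hairs were brushed free of seedlings grown for 4 to 5 days, pollen was sorted as hydrated grains, seedlings were 7 days old, siliques were taken 2 weeks after bolting, leaves were rosette leaves, flowers were open, and pistils were unpollinated and the source of the ovules. By the study's methods only the root hairs were prepared for that study, with a 2-cycle labelling protocol, while pollen, leaves, seedlings, siliques and flowers were taken over from 1 earlier study and the 2 female tissues from another, so that cell type and study cannot be told apart for the root hairs. Leaves, unpollinated pistils, ovules and siliques are called the 4 tissues, since flowers hold pollen and seedlings carry root hairs. In whole organs fewer cells of a type and less RNA per cell cannot be told apart.

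Intensities are in arbitrary units, differences are on the scale of log2(intensity + 71.9), which understates changes of dim probe sets, and an intensity under 216 was taken as not above background. Array medians were 89.4 to 95.9 for root hairs and pollen and 203 to 252 for the other types, and the median of all probe sets was 0.50 lower (log2) in root hairs and 0.60 lower in pollen than in the 4 tissues. The 4 root hair markers measured summed to between 23216 and 24081 on the root hair arrays and to at most 474 on the pollen arrays. The 5 pollen markers summed to between 50128 and 51039 on the pollen arrays and to between 1476 and 1551 on the root hair arrays, where SYP131 and ACA9 were above 216. The pollen markers SYP131, CSLD1, PRF5 and ACA9 and the root hair marker COBL9 were named only through the study's tables, drawn up from these arrays. Their levels in these cells are therefore not an independent check. The 3 inner root markers summed to between 321 and 478 in root hairs and to between 3774 and 4002 in seedlings. In root hairs the endodermal gene CASP1 was at 266, with replicate 1 at 188, under background, and replicate 2 at 344. The phloem gene SUC2 at 76.6 and the cortex gene CO2 at 56.5 were not above background. CASP1 and SUC2 were likewise named only through the study's tables. The part of RNA from other cells in the values below was not tested.

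**Figure D1:**
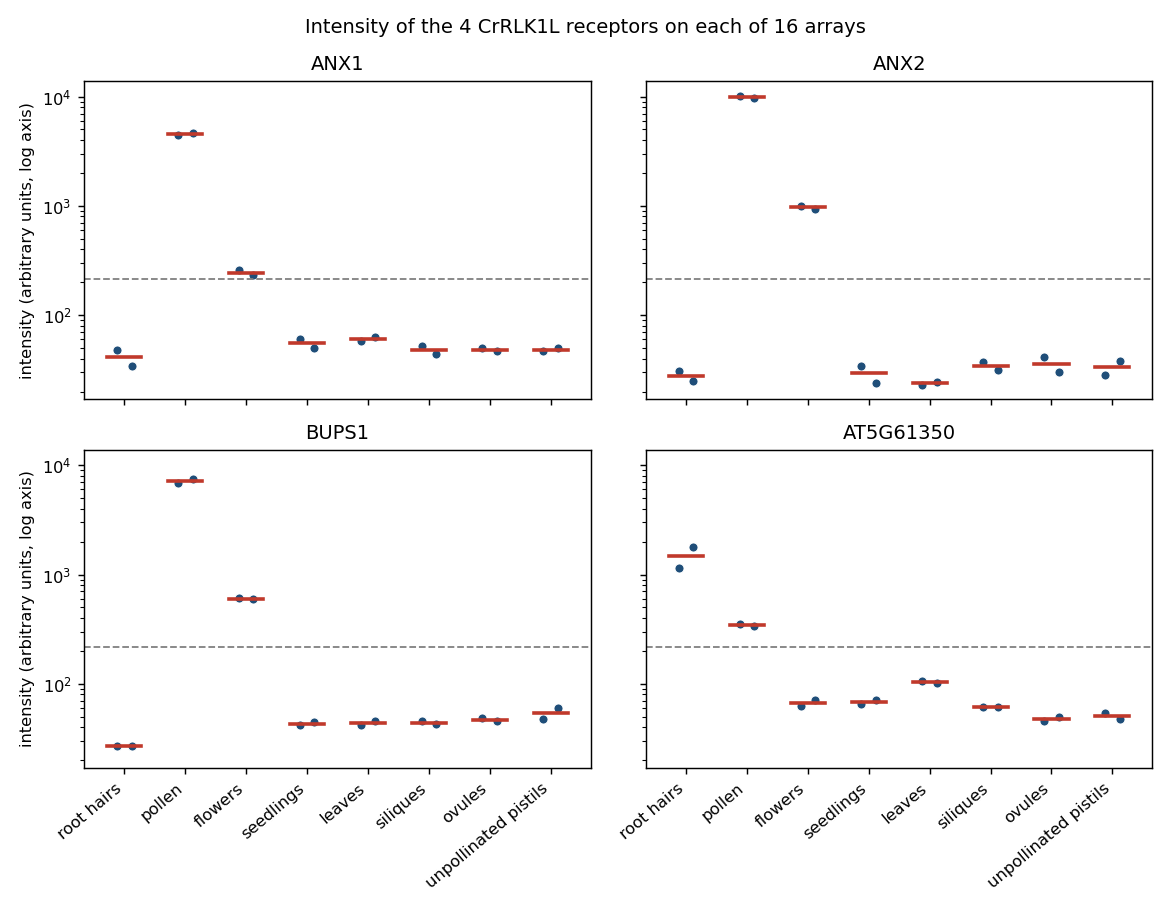
Intensity (arbitrary units, log axis) of ANX1, ANX2, BUPS1 and AT5G61350 on each of 16 arrays by sample type, with points for the 2 replicates, red lines for their mean and a dashed line at 216, under which values were taken as background. ANX1, ANX2 and BUPS1 stand above the line in pollen and flowers, and AT5G61350 in root hairs and pollen.

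In pollen, ANX1, ANX2 and BUPS1 were far above every other sample type, with flowers next, and the remaining 6 types were not above background. ANX1 was at 4424 and 4615 on the pollen arrays, at 260 and 231 on the flower arrays, and between 44.5 and 62.8 with a median of 50.2 on the 8 arrays of the 4 tissues. The seedling arrays read 60.8 and 50.2 and the root hair arrays 47.7 and 34.6, so that the pollen and flower arrays overlapped with no other array. ANX1 was 5.22 higher (log2, SE 0.06) in pollen than in the 4 tissues, with an adjusted p of 1.4e-18 by limma with Benjamini-Hochberg adjustment over all probe sets. Since the 4 tissues were under background, their value was bounded at 216, and the intensity in pollen was at least 21.0-fold higher.

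ANX2, the partner of ANX1 in the pollen tube membrane, was at 10226 and 9781 in pollen and at 1004 and 942 in flowers. Its 8 arrays of the 4 tissues lay between 23.1 and 41.5 with a median of 31.1. The seedling arrays read 34.7 and 24.1 and the root hair arrays 30.6 and 24.98. Again pollen and flowers stood apart from all other arrays and from each other. The difference from the 4 tissues was 6.60 in pollen (log2, SE 0.06, limma adjusted p = 2.1e-19), at least 46.4-fold above the background level.

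BUPS1, which acts in a complex with ANX1 and ANX2, was at 6940 and 7483 in pollen and at 605 and 603 in flowers. Its 8 arrays of the 4 tissues lay between 42.3 and 60.1 with a median of 46.1. The seedling arrays read 41.8 and 44.4, and the root hair arrays 27.0 and 26.9. Pollen and flower arrays were apart from the rest, and the root hair arrays were the lowest of the 16. The difference from the 4 tissues was 5.93 in pollen (log2, SE 0.06, limma adjusted p = 1.65e-19), at least 33.4-fold above the background level.

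AT5G61350 was the one member with its highest level in root hairs, at 1152 and 1775. It was at 354 and 341 in pollen, and no other type was above background. Leaves followed at 105 and 102, then seedlings at 65.7 and 70.9, flowers at 62.3 and 71.7, siliques at 61.0 and 61.6, unpollinated pistils at 53.7 and 47.7 and ovules at 45.4 and 50.1. Thus neither the root hair nor the pollen arrays overlapped with any array of another type, although the root hair replicates spread more widely (1463 ± 441, SD, n = 2) than those of pollen (348 ± 8.85). The log2 difference from the 4 tissues was 3.47 in root hairs (SE 0.10, limma adjusted p = 6.0e-14) and 1.62 in pollen (SE 0.10, limma adjusted p = 4.4e-10). These correspond to at least 6.78-fold and at least 1.61-fold above the background level.

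Against the 4 tissues, 4 of 4 members were higher in pollen, where 21.2% of all probe sets were higher and 64.5% lower. With all differences taken relative to the median probe set, the members were 5.82 (ANX1), 7.20 (ANX2), 6.53 (BUPS1) and 2.22 (AT5G61350) higher on the log2 scale. The contrast within the study that gave the pollen, against leaves and siliques alone, gave 5.19, 6.64, 5.97 and 1.46 in the same order, where 20.1% of all probe sets were higher. All 4 were also above each of the 4 tissues separately in pollen, as were 13.9% of all probe sets.

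In root hairs the members parted. AT5G61350 was higher than the 4 tissues, BUPS1 was lower by 0.27 (log2, SE 0.06, limma adjusted p = 0.00037), and neither ANX1 (difference -0.13, SE 0.06, limma adjusted p = 0.068) nor ANX2 (difference -0.06, SE 0.06, limma adjusted p = 0.42) passed the test. These counts, 1 higher and 1 lower, stand against 19.2% of all probe sets higher and 69.0% lower. All 3 pollen receptors were under 216 in root hairs and in the 4 tissues, and relative to the median probe set they were 0.23 to 0.44 higher in root hairs, so that the sign of these small differences depends on how arrays were scaled. With arrays scaled to a common 75th percentile, 3 members were higher and 0 lower in root hairs, with 42.8% of all probe sets higher and 39.6% lower. After quantile normalization 2 were higher and 0 lower, with 42.0% of all probe sets higher and 39.6% lower. AT5G61350 was above each of the 4 tissues in root hairs and in pollen, a pattern of 3.2% of all probe sets.

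Set directly against pollen, root hairs had 1 member higher and 3 lower, where 35.0% of all probe sets were higher in root hairs and 42.6% lower. AT5G61350 was 1.84 higher in root hairs (log2, SE 0.13, limma adjusted p = 3.7e-09), while the differences of ANX1 (-5.35), ANX2 (-6.66) and BUPS1 (-6.20) had the opposite sign and limma adjusted p-values of 2.6e-17 and below. The difference of AT5G61350 was 0.62 after quantile normalization and 1.10 after scaling to the 75th percentile, and passed the test in each. Its difference between pollen and the 4 tissues went the other way, from 1.62 as deposited to 3.04 and 3.22.

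Between types next to each other in mean level, the order of the 8 sample types was resolved mainly at its top. Types further apart could differ where neighbours did not. BUPS1 was lower in root hairs than in each of the 4 tissues, all under background. For ANX1, pollen exceeded flowers by 3.85 and flowers exceeded leaves by 1.26 (log2, limma adjusted p = 2.5e-15 and 2.5e-09). Below these, leaves, seedlings, unpollinated pistils, ovules, siliques and root hairs each did not differ from the next beyond their spread. For ANX2, pollen exceeded flowers by 3.27 and flowers exceeded ovules by 3.28, and no other neighbours differed. For BUPS1 the steps were 3.43 from flowers to pollen and 2.43 from unpollinated pistils to flowers, and at the lower end seedlings exceeded root hairs by 0.22 (limma adjusted p = 0.010), both under background. For AT5G61350 the step from pollen to root hairs of 1.84 was followed by 1.26 from leaves to pollen, and the step of 0.32 from seedlings to leaves did not pass (limma adjusted p = 0.055). Of the 28 pairs of types, 14 differed for ANX1, 13 for ANX2, 18 for BUPS1 and 17 for AT5G61350. Over all probe sets, 66.7% of such pairs differed.

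Flowers contain pollen, and the level of each pollen receptor in flowers was a small part of its level in pollen. All 4 members were higher in pollen than in flowers, where 23.6% of all probe sets were higher and 55.9% lower. The mean intensity in flowers was 5.44% of that in pollen for ANX1, 9.73% for ANX2 and 8.38% for BUPS1. To place these values, 394 probe sets were taken with a mean of at least 1000 in pollen and under 216 in each of the 4 tissues, a reference chosen after the data were seen and used as a description. Their median in flowers was 10.8% of the pollen level, with quartiles of 8.22% and 15.4%. ANX2 and BUPS1 lay within these quartiles, with 40.1% and 26.4% of the reference below them, whereas 4.06% lay below ANX1. BUPS2, not a member, was at 4.88%, with a flower level of 161 that was not above background. No bound was set on the flower value of the reference. AT5G61350 at 67.0 was not above background in flowers, although pollen had 348.

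Seedlings contain root hairs, and AT5G61350 in seedlings was at 4.67% of its root hair level, under background. Of 248 probe sets chosen in the same manner for root hairs, the median in seedlings was 7.13% of the root hair level with quartiles of 3.56% and 13.3%, and 33.1% lay below AT5G61350. No bound was set on the seedling value of this reference. Within it EXPA7, at 131 in seedlings, was also under background there, while COBL9, at 349, was not. The rank of AT5G61350 therefore partly compares background signal. Against seedlings, 1 member, AT5G61350, was higher in root hairs by 3.42 (log2, SE 0.13, limma adjusted p = 1.7e-12) and 1, BUPS1, was lower by 0.22, while 18.5% of all probe sets were higher and 64.4% lower. ANX1 (difference -0.17, limma adjusted p = 0.054) and ANX2 (difference -0.02, limma adjusted p = 0.81) did not pass. After quantile normalization or scaling to the 75th percentile, 3 members were higher than in seedlings and 0 lower.

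**Figure D2:**
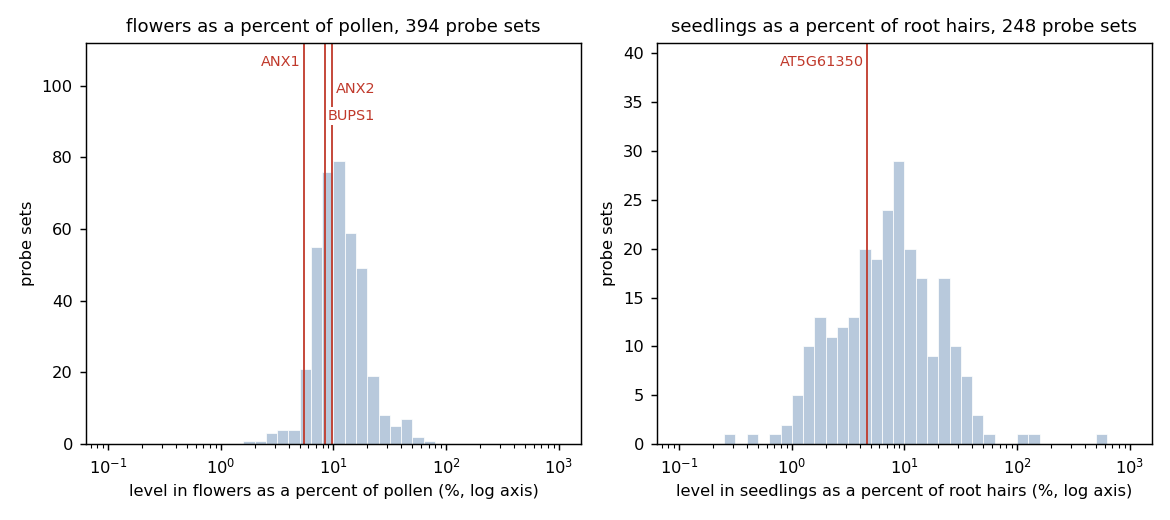
Histograms of the level in flowers as a percent of that in pollen (left, 394 probe sets) and of the level in seedlings as a percent of that in root hairs (right, 248 probe sets), on a log axis, for probe sets of at least 1000 in the cell type and under 216 in each of the 4 tissues. Red lines mark ANX1 at 5.44%, BUPS1 at 8.38%, ANX2 at 9.73% and AT5G61350 at 4.67%.

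Across the means of the 8 sample types, the log2 profiles of the 3 pollen receptors ran together, with a Pearson r of 0.972 for ANX1 and ANX2, 0.987 for ANX1 and BUPS1 and 0.997 for ANX2 and BUPS1. Their r with AT5G61350 was 0.237, 0.190 and 0.179. With 8 types, of which 6 were background for the pollen receptors, these values rest on pollen and flowers, and 142 to 146 probe sets had an r above 0.99 with each pollen receptor. Only 4 did with AT5G61350.

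Likeness was then measured as the root mean square difference between the log2 profiles over the 8 types, each centred on its mean. The 5 named genes most like ANX1 were BUPS2 (0.0794, r = 0.999), the proline-rich extensin-like receptor kinase PERK11 (0.0957), AT5G48270, AT3G62640 and AT5G46770. Those most like ANX2 were AT1G76370 (0.0746), the pollen receptor kinase PRK4 (0.0760), AT5G20390, SVL5, a glycerophosphodiester phosphodiesterase-like protein, and the cellulose synthase-like CSLD1. BUPS1 was closest to AT5G42490 (0.0857), the wall extensin LRX9 (0.0975), AT3G62180, the phosphoinositide kinase PIPK11 and AT2G22340. All 15 had pollen as their highest type and flowers second. For AT5G61350 a kinesin-related gene, AT1G09170, was closest (0.0942, r = 0.998), at 1103 in root hairs and 258 in pollen. The next, AT3G09020, BT2, AT5G01280 and AT2G29620, were less alike at 0.225 to 0.253, and all 5 were highest in root hairs. With Pearson r as the measure, 1 of the 5 remained for ANX1, 3 for ANX2, 3 for BUPS1 and 1 for AT5G61350.

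The family as a whole was set beside the members. Of 17 CrRLK1L genes listed, 13 had a probe set of 1 gene, MDS1 and MDS2 shared 1 probe set, and 2 were not analysed here. Of the 9 measured genes that are not members, 1 was higher in pollen, 7 lower and 1 neither, with a median difference of -1.12 against -0.60 over all probe sets. In root hairs 2 were higher, 6 lower and 1 neither, with a median of -0.72 against -0.50. Over all probe sets 21.2% were higher and 64.5% lower in pollen, and 19.2% higher and 69.0% lower in root hairs. BUPS2, the relative of BUPS1, was the one that was higher in pollen, at 3293 ± 119 (SD, n = 2), with 161 in flowers and 19.05 to 24.97 in the other 6 types. Neither flowers nor these 6 types were above background.

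FER, the receptor of RALF1, had a pattern opposite to the pollen receptors. It was at 4626 ± 232 (SD, n = 2) in root hairs, between 911 and 2140 in the 4 tissues, 1298 in flowers and 1229 in seedlings, but 35.5 in pollen, not above background. Its log2 difference from the 4 tissues was 1.66 in root hairs (SE 0.10, limma adjusted p = 4.3e-10) and -3.79 in pollen (SE 0.10, limma adjusted p = 1.3e-14). CVY1, a receptor known from trichome and pavement cell shape, was likewise highest in root hairs, at 1494 ± 394 (SD, n = 2), with 205 to 280 in the 4 tissues and 47.8 in pollen (log2 differences 2.26 and -1.42). In seedlings FER stood at 26.6% and CVY1 at 24.8% of their root hair level.

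THE1, which senses disturbed cellulose synthesis and binds RALF34, was not above background in root hairs (144) or pollen (132), against 372 to 1351 in the 4 tissues, with log2 differences of -1.87 and -1.95. The probe set of MDS1 and MDS2, receptors named for responses to metal ions, read 34.8 for root hairs, 72.7 for pollen and from 137 to 1578 over the 4 tissues, with leaves the highest. AT5G59700 (-1.55) and AT5G24010 (-1.86) were lower in root hairs, and both were lower in pollen as deposited (-1.17 and -1.12). MDS3, MDS4 and AT2G23200 differed by -0.55, -0.73 and -0.72 in root hairs and by -0.14, 0.10 and -1.09 in pollen, where that of MDS4 did not pass. The mean of MDS3 was under 216 in every sample type. Its lower call in pollen did not pass with most single arrays left out, with a pseudocount of 1 or without the trend. The calls of FER, CVY1, THE1 and MDS1 and MDS2 in both cell types, and of BUPS2 in pollen, were kept after quantile normalization and after scaling to the 75th percentile. In pollen those of AT5G59700, AT5G24010, AT2G23200, MDS3 and MDS4 changed under 1 or both, and in root hairs those of AT2G23200, MDS4 and BUPS2. Counted in this manner, 3 of the 9 were higher and 4 lower in pollen after quantile normalization, and 5 were higher and 3 lower after scaling to the 75th percentile. In root hairs 4 were higher and 4 lower after the former, and 3 were higher and 5 lower after the latter. Over all probe sets, in the same order of scalings, 45.9% and 61.8% were higher in pollen and 41.8% and 29.7% lower. In root hairs 42.0% and 42.8% were higher, with 39.6% lower in each.

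**Figure D3:**
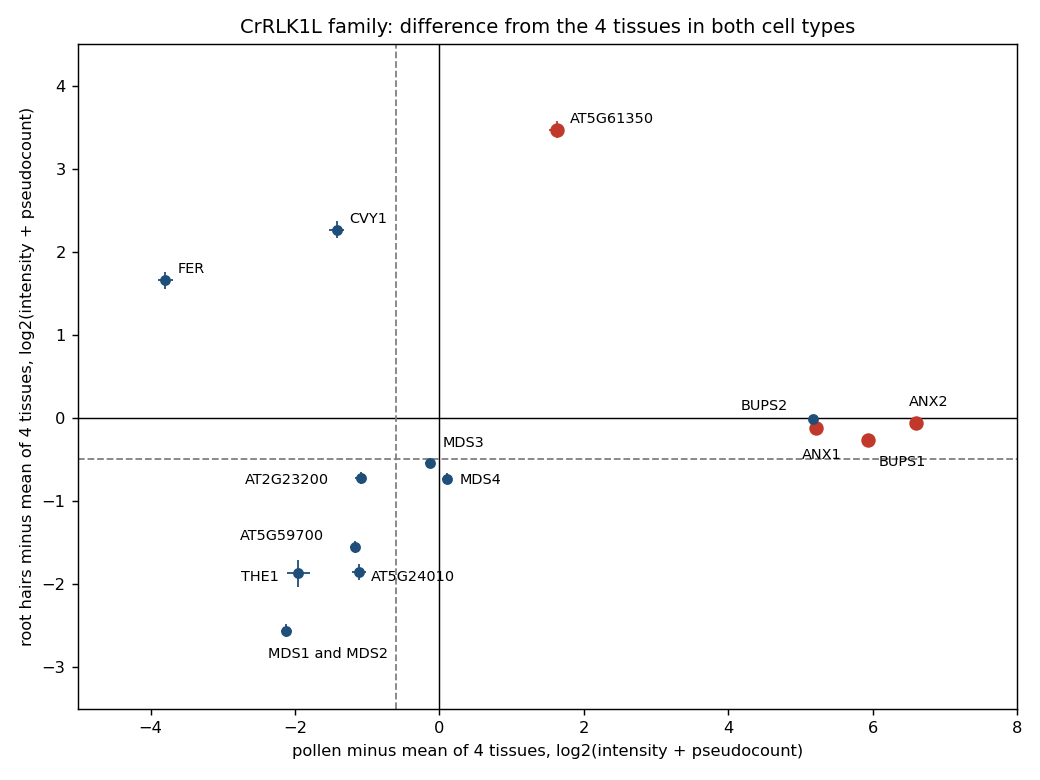
Difference from the mean of the 4 tissues in pollen (x axis) and in root hairs (y axis), in log2(intensity + pseudocount), for the 13 CrRLK1L genes and the shared probe set of MDS1 and MDS2, with bars of 1 SE, the 4 members in red and dashed lines at the median of all probe sets (-0.60 and -0.50). AT5G61350 is the one plotted gene called higher in both cell types as deposited (ANX1 and BUPS2 join it after either other scaling and ANX2 after that to the 75th percentile), ANX1, ANX2, BUPS1 and BUPS2 lie to the right, and FER and CVY1 at the upper left.

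Of 54 genes listed for the pathway of these receptors, 23 had a probe set of 1 gene here. Those without one included the ligands RALF4 and RALF19, the co-receptors LRE, LLG2 and LLG3, the NADPH oxidases RBOHH and RBOHJ, and ROP1. The counts say nothing of these genes. In pollen 13 passed as higher, 9 as lower and 1 neither, where 21.2% of all probe sets were higher and 64.5% lower, with a median difference of 0.43 against -0.60. In root hairs 13 were higher, 8 lower and 2 neither, where 19.2% of all probe sets were higher and 69.0% lower, with a median of 0.21 against -0.50. The split in root hairs depended on the scaling, with 17 higher and 3 lower after quantile normalization and 16 higher and 2 lower after scaling to the 75th percentile. In pollen these gave 15 and 16 higher, and 7 lower in each. Over all probe sets the shares rose as well, to 45.9% and 61.8% higher in pollen, with 41.8% and 29.7% lower. In root hairs they were 42.0% and 42.8% higher, with 39.6% lower in each. Since 10 of the 23 were named only through the study's tables of transcripts expressed on these arrays, the counts lean towards genes present in the 2 cell types. Among the other 13, named by the platform annotation or its symbols, 8 were higher and 4 lower in pollen, and 6 were higher and 6 lower in root hairs.

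Of the 6 RALF peptides measured, the ligands, 2 were higher and 4 lower in pollen. RALF4 and RALF19 were not among these 6. RALF25 was at 13064 ± 718 and RALF26 at 21711 ± 499 (SD, n = 2) in pollen, with log2 differences of 6.93 and 6.88. In flowers RALF25 was at 11.9% and RALF26 at 19.5% of the pollen level. RALF33, at 38.4 in pollen (difference -3.37), and RALF34, at 224 (difference -2.74), were the farthest below the 4 tissues. In root hairs 2 peptides were higher, 3 lower and 1, RALF1, neither, and RALF1 was called higher there after either other scaling. RALF22 was at 7483 ± 117 (SD, n = 2), 3.41 higher than the 4 tissues (limma adjusted p = 2.2e-14), and RALF33 at 2552, 1.20 higher. RALF34, a ligand of THE1, was at 136 in root hairs against 1518 to 2452 in the 4 tissues (difference -3.25). RALF25 and RALF26 were not above background in root hairs.

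The one co-receptor measured, LLG1, which carries FER to the membrane and binds RALF peptides with it, was at 3499 ± 74.6 (SD, n = 2) in root hairs, 1.55 higher than the 4 tissues. In pollen it was at 189, 2.22 lower on the log2 scale and not above background. Its direction in both cell types was that of FER. The probe set of LLG1 was named only through the study's tables of transcripts expressed on these arrays. LRE, LLG2 and LLG3 had no probe set of 1 gene here, so that the level of co-receptors in pollen was not covered beyond LLG1.

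Among the 7 wall extensins, 6 were higher in pollen and 1 lower. LRX1, among these 6, was at only 53.7 in pollen, not above background. LRX9 (9919), LRX11 (6203) and LRX10 (5639) had the largest differences from the 4 tissues, at 6.11, 5.90 and 5.27, and LRX8 was at 5488 with a difference of 4.93. Their level in flowers was 5.997% to 8.72% of that in pollen. In root hairs 3 were higher, 3 lower and 1 neither as deposited, but 6 were higher and 0 lower after quantile normalization and 5 were higher and 0 lower after scaling to the 75th percentile. There LRX9 and LRX11 were called higher after either scaling and LRX10 after quantile normalization. LRX1, the extensin of the root hair wall, was at 534 ± 55.5 (SD, n = 2), 2.70 higher than the 4 tissues, where it lay between 19.4 and 23.3. LRX8 was at 272 (0.92 higher) and LRX4 at 93.1 (difference -0.64). LRX4 was lower in pollen and in root hairs as deposited, was higher in pollen after either scaling, and lost its call in root hairs.

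Of the 4 genes downstream of the receptors, 2 were higher in pollen, 1 lower and 1 neither, and 3 were higher and 1 lower in root hairs. MRI, a cytoplasmic receptor-like kinase that acts behind ANX1 and ANX2 and in root hairs, was at 2681 ± 13.4 in pollen and at 2853 ± 171 (SD, n = 2) in root hairs, against 110 to 198 in the 4 tissues. Its differences were 3.67 and 3.76, and its level was 9.36% of pollen in flowers and 7.37% of root hairs in seedlings. AUN1, a protein phosphatase known as a negative regulator of tip growth, was at 2187 in pollen and 1519 in root hairs, against 232 to 380 (differences 2.65 and 2.14). MLO1, a membrane protein of the MLO family, was 1.81 lower in pollen. It was 0.71 lower in root hairs as deposited, a call that neither other scaling kept.

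Of the 5 genes of the ROP module, pollen had 3 higher and 2 lower, and root hairs had 4 higher and 1 lower. All 5 were named only through the study's tables of transcripts expressed on these arrays. These counts therefore lean towards genes present in the 2 cell types. The exchange factor ROPGEF11 read 3002 for pollen and 283 for root hairs, against 15.33 to 15.98 in the 4 tissues (differences 5.13 and 2.02). ROPGEF12 was at 3440 in pollen and 666 in root hairs, against 26.0 to 41.1 (differences 5.05 and 2.80). ROPGEF14 was lower in both, at 41.1 and 28.5 against 243 to 544 (differences -1.89 and -2.06). ROP2, a GTPase of root hair tip growth, was at 233 in pollen with an SD of 168 over 2 arrays, a difference of -2.73 from the 4 tissues.

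**Figure D4:**
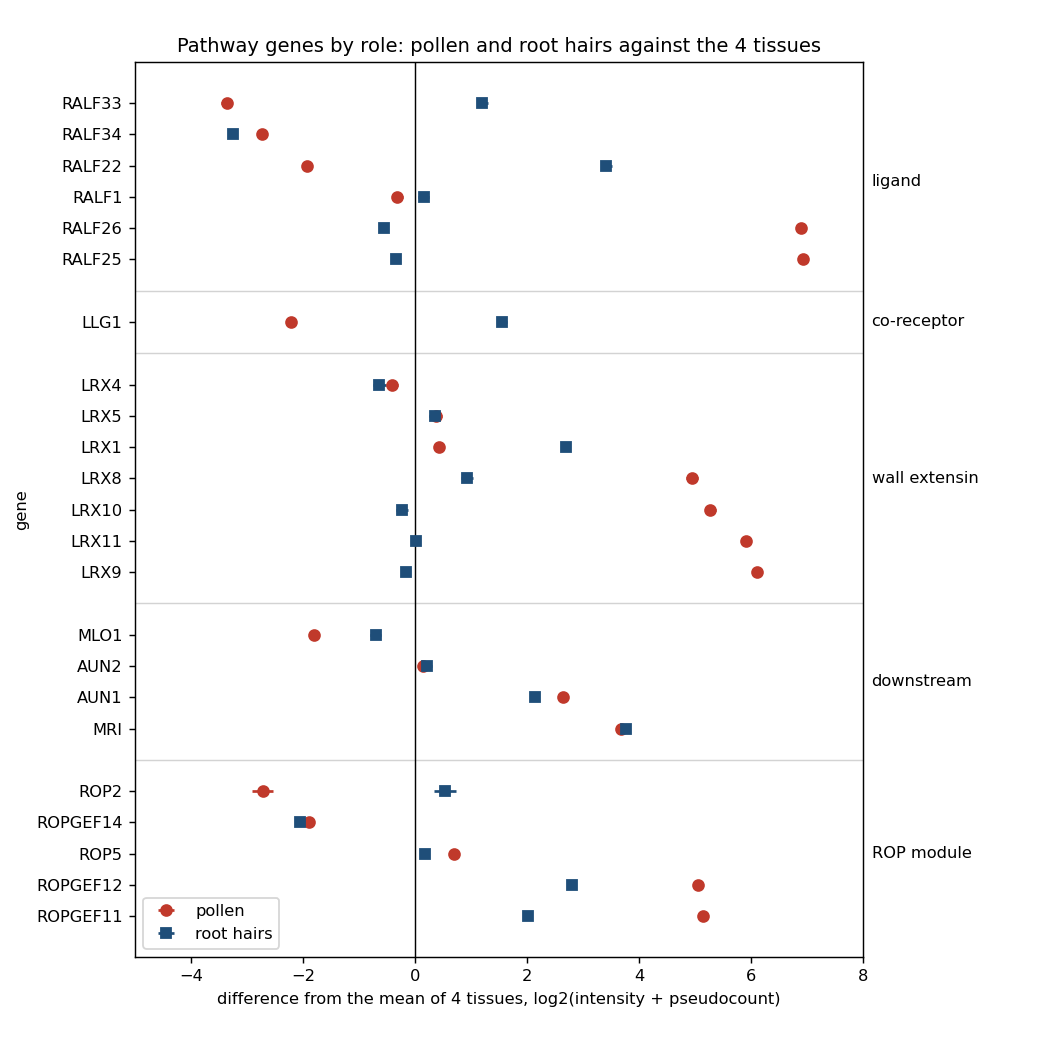
Difference from the mean of the 4 tissues, in log2(intensity + pseudocount), of the 23 measured pathway genes in pollen (red circles) and root hairs (blue squares) by role, with bars of 1 SE. RALF25, RALF26 and LRX8 to LRX11 stand out in pollen, RALF22, LLG1 and LRX1 in root hairs, and MRI, AUN1, ROPGEF11 and ROPGEF12 in both.

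The patterns of calls in the 2 cell types were counted over both lists. AT5G61350 shared higher calls in pollen and root hairs with 8 pathway genes (AUN1, LRX1, LRX5, LRX8, MRI, ROP5, ROPGEF11 and ROPGEF12), a pattern of 6.52% of all probe sets. AT5G61350, AUN1, LRX1, ROP5, ROPGEF11 and ROPGEF12 were named only through the study's tables of transcripts expressed on these arrays. The share over all probe sets is therefore not a like comparison. LRX1 was not above background in pollen. ANX1, ANX2 and BUPS2 were higher in pollen with no call in root hairs, as was LRX11, a pattern of 5.43% of all probe sets. BUPS1 was higher in pollen and lower in root hairs, as were LRX9, LRX10, RALF25 and RALF26, a pattern of 9.22%. FER and CVY1 were higher in root hairs and lower in pollen with LLG1, RALF22, RALF33 and ROP2, a pattern of 9.94%. Of these, LLG1 and ROP2 were named only through the study's tables, so that this share is not a like comparison for them. The root hair call of ROP2 did not pass with either root hair array left out (differences 0.60 and 0.46), nor did that of ROP5 without replicate 1 (0.093) or of LRX5 without replicate 2 (0.16), and the pollen call of LRX5 did not pass without pollen replicate 1 (0.25). The lower calls of LRX9 and LRX10 in root hairs and the higher call of AUN2 there did not pass without root hair replicate 1, and that of LRX10 did not pass with several other arrays left out. The lower calls of LRX4 and RALF1 in pollen did not pass without pollen replicate 2. The no call and lower patterns of root hairs changed with the scaling for ANX1, ANX2, BUPS1, BUPS2, LRX9, LRX10, LRX11, RALF25 and RALF26.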

How the data were processed

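Values were the expression intensities deposited by the authors for 16 ATH1 arrays. GCOS 1.4 and MAS5 stand in the submitters' processing notes, and the study's methods give dChip for model-based expression over the 16 arrays. Their normalization was not repeated, and detection calls of the arrays were not used here. From the intensities, log2(intensity + 71.9) was computed, with the arrays' median 20th percentile as pseudocount, and 216 was 3 times that. Of 22810 probe sets, 64 controls were left out. limma 3.58.1 in R 4.3.3 fitted the mean of each sample type (variance trend on, 8 residual degrees of freedom), followed by Benjamini-Hochberg adjustment over all 22746 probe sets and calls at 0.05. The fit was also run on simulated data in which a small part of the probe sets changed, in pollen only. Those data held no general shift between sample types, so that they do not test the scaling. Precision is limited by the 2 arrays per type. A p-value reflects only their spread, pooled over types and, by the empirical Bayes step of limma, drawn towards that of all probe sets.

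Probe sets were named from the platform annotation (13436), by symbol (72) or from the study's tables (2025), so that 15533 had 1 gene, 589 several and 6624 none. The 2 sources named 60 of 2711 probe sets differently. Of 39 cell type markers listed, 17 were measured, with none for sperm cells, petals and stamens or developing seeds.

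All members were named, the other CrRLK1L genes by their differences, up to 3 pathway genes of each role by the size of their difference in each cell type, and the 5 named genes most like each member. Further pathway values (AUN2, LRX5, LRX8 and RALF34 in pollen, RALF1, ROP5) and the flower and seedling percentages lie outside this rule and were chosen after their values were seen. The members and lists were chosen with earlier results of these data known. Alternatives were other pseudocounts, scaling to the 75th percentile, quantile normalization, a filter on dim probe sets, no trend, a replicate block, other detection levels and leaving out each array. Tables and figures used Python 3.11.15, pandas 2.3.3, numpy 2.4.6 and matplotlib 3.10.9. Sequences were not used here, and gene order on the chromosomes only to find the genes next to the members.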

Additional observations from a re-analysis of the deposited data

Results flagged for a closer look

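The difference from the same 4 tissues differed between root hairs and pollen for each of the 4 receptors, tested directly as root hairs minus pollen in the limma fit. The log2 difference was -5.35 for ANX1 (limma adjusted p = 2.6e-17), -6.66 for ANX2 (limma adjusted p = 4.4e-18) and -6.20 for BUPS1 (limma adjusted p = 2.6e-18), each lower on 2 of 2 root hair arrays than on both pollen arrays. AT5G61350 was higher in root hairs by 1.84 (limma adjusted p = 3.7e-09), on 2 of 2 arrays. The 4 tissues are shared by both differences, and cell type, study and labelling protocol cannot be told apart for the root hairs.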

How the results depend on the processing

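The calls of all 4 members in pollen against the 4 tissues and against flowers, and in root hairs against pollen, kept their direction and side of the threshold under every alternative run, as did those of AT5G61350 in root hairs. With single arrays left out, the difference of AT5G61350 from the 4 tissues ranged from 3.17 to 3.76 in root hairs and from 1.60 to 1.65 in pollen. The small root hair differences of ANX1, ANX2 and BUPS1, all under background, changed sign with the scaling. After quantile normalization they were 0.22, 0.14 and -0.065 against the 4 tissues and 0.21, 0.19 and 0.0085 against seedlings, and with the 75th percentile 0.28, 0.27 and 0.055 against the 4 tissues and 0.22, 0.29 and 0.094 against seedlings. ANX2 against seedlings was 0.02 without root hair replicate 2 and 0.053 without seedling replicate 1, so that it ranged from -0.10 to 0.053. Quantile normalization left 2 members higher and 0 lower in root hairs than in the 4 tissues, and 3 higher and 0 lower than in seedlings, and the 75th percentile 3 higher and 0 lower in each. Other CrRLK1L genes came to 3 higher and 4 lower in pollen and 4 higher in root hairs with quantile normalization, and to 5 higher and 3 lower in pollen with the 75th percentile. Pathway genes lower in root hairs fell from 8 to 3 with quantile normalization and to 2 with the 75th percentile. Members lower in root hairs were 2 against the 4 tissues and 2 against seedlings with a pseudocount of 1, and 2 and 2 without root hair replicate 1 (from 1 to 2 over single arrays left out). The added call was that of ANX1, at -0.21 and -0.26. Without seedling replicate 2, ANX1 against seedlings passed (-0.23) and BUPS1 did not (-0.20). Against seedlings they were 0 with a pseudocount 4 times as large, and 2 without dim probe sets or without the trend. The cause was not tested. With quantile normalization 45.9% of all probe sets were higher and 41.8% lower in pollen than in the 4 tissues, and with the 75th percentile 61.8% and 29.7%, where the median probe set moved from -0.60 to 0.05 and 0.62. At 5 times the pseudocount ANX1 and AT5G61350 were above background in 1 type each instead of 2. Samples with the same replicate number did not deviate together (28 pairs of types, r from -0.37 to 0.19, 2 above 0.1), and the replicate block left 4 members higher in pollen, with 1 higher and 1 lower in root hairs, and changed no call of a member.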

Other observations

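Genes next to the members on the chromosome were looked up in RefSeq. AT5G61360, the neighbour of AT5G61350 on chromosome 5, was at 2259 in pollen, 70.8 in root hairs and 87.0 on average in the 4 tissues, so that it was above background in pollen, where AT5G61350 was at 348, and not in root hairs, where AT5G61350 was at 1463. AT5G61340, on the other side, was at 91.0 in pollen and 170 in root hairs, both under background, against 713 in the 4 tissues. Next to BUPS1 on chromosome 4, SHL1 was at 77.1 in pollen, 540 in root hairs and 828 in the 4 tissues. These neighbours were chosen after the members' values were seen, and no test was made of them.

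AUN2, the relative of AUN1, was, as deposited, at 785 in pollen and 826 in root hairs against 589 to 864 in the 4 tissues, whereas AUN1 was at 2187 and 1519 and between 232 and 380 in the 4 tissues. The log2 difference of AUN2 between pollen and the 4 tissues was 0.15 as deposited (limma adjusted p = 0.11), but 1.39 after quantile normalization and 1.90 after scaling to the 75th percentile, and passed in both. RALF1, a ligand of FER, was above background in seedlings (804 ± 2.69, SD, n = 2) and in no other sample type, with 91.2 in root hairs.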
